A study of Mus musculus with 12 samples.

Results

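The cytosolic ribosomal protein genes were read in 12 mouse liver RNA libraries. They were taken by symbol: Rpl or Rps followed by a digit, with Rplp0, Rplp1, Rplp2 and Rpsa, and without the Rps6k kinases, symbols that end in l and a digit, Rps27l and the -ps pseudogenes. The rule gave 86 of 16970 genes in the table, 52 with an Rpl symbol and 34 with an Rps symbol. Of these, 77 encode standard subunits, 46 of the large and 31 of the small subunit. The other 9 are paralogs, retrogenes or, for Rps19bp1, a protein that binds a ribosomal protein. Among them, GENCODE lists Rpl6l and Rpl32l as processed pseudogenes and Rpl37rt as a transcribed one, and the rule keeps them. The filter on low values left 84 of the 86 to test; Rpl39l and Rpl3l were too low, and all 77 standard subunits were tested.

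Liver was taken from mice with cholestasis, a failure of bile flow, and the libraries form 4 groups with 3 in each. BDL libraries came from mice whose bile duct was ligated for 7 days. BDL_H mice were ligated alike and, from 3 days after surgery, were given 100 mg/kg of the bile acid HDCA (hyodeoxycholic acid) for 4 days. MDR was taken as the second model that the series names, the Abcb4-/- mouse, 60 days old, which lacks the transporter that moves phosphatidylcholine into bile; MDR_H mice were given HDCA as well, 100 mg/kg for 21 days. No library label names Abcb4, and strain, sex and the age of the ligated mice are not in the labels. Unoperated and wild-type livers were not analysed here. Whether each library is its own animal is not in the labels, and the p-values therefore cover only library-to-library spread, which could be technical.

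A ribosome is built from ribosomal RNA and one copy of most ribosomal proteins, so cells make these proteins in matched amounts, and in liver their messengers are among the most abundant. The messengers belong to the class that begins with a C and a run of pyrimidines, the terminal oligopyrimidine (TOP) motif. Through this motif mTOR, a growth-sensing kinase, and Larp1, an RNA-binding protein, control their translation and stability, largely without a change in transcription.

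The start sites are shown first because the TOP motif defines the class to which, as background, these messengers belong. RefSeq gave a start window (GRCm38.p6) for 65 of the 86 genes and for 57 of the 77 standard subunits. Each line below gives 15 bases before the annotated start and 15 from it, so that the annotated start is the base after the first 15. Capitals mark a run of at least 5 pyrimidines led by a C that begins within 5 bases of that start; a line without capitals has none there. The genes are a hand-picked part of those whose levels are described further on, with Rps6 and Rpl38 as textbook TOP messengers. The lines do not show how common the run is, and the counts over all windows follow them.
Rplp2: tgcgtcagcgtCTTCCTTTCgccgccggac
Rpl28: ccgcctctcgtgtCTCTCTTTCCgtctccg
Rps6: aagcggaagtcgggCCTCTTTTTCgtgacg
Rps18: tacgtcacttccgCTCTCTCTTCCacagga
Rpl38: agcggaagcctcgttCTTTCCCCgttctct
Rps27: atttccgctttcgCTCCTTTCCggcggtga
Rps27rt: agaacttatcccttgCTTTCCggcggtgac
Rpl13a: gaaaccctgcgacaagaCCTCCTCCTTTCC
Rps26: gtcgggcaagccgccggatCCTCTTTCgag
Rps2: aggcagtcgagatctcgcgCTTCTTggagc
Rps3: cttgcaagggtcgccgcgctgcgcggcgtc
Rps19bp1: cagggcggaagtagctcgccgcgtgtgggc

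A C followed by at least 4 pyrimidines stood at an annotated start in 13 of 57 standard subunits (22.8%), against 2.9% of the 13288 genes of the table with a window. These counts include runs that began before the start, as in Rpl28 and Rps18. Within 5 bases of the start the shares were 47.4% and 23.4%. An annotated start can lie a few bases from the used one, so these are counts of letters and not of TOP messengers. Among the 69 mitochondrial ribosomal protein genes with a window, 0 had the run at the start and 24.6% had it within 5 bases. The word CCGGAA, searched on both strands of the 300-base window, was in 56.1% of standard subunits and 26.1% of all genes. It was in 58.0% of the mitochondrial ribosomal protein genes, a share like that of the cytosolic ones. ATGGCGG, searched the same way and unable to overlap CCGGAA by more than 1 base, was in 15.8% of subunits and 7.6% of all genes. Rps27rt, a retrogene, and its parent Rps27 shared an unbroken run of 38 bases that begins at the annotated start of Rps27rt (chr9:114982725-114982754 for the window above) and 1 base after that of Rps27 (chr3:90213634-90213663).

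Values are FPKM, fragments scaled by gene-model length and by library size. Reads recovered from the FPKM steps came to 34260782 to 40427855 per library, and the median number of reads of a standard subunit ran from 1669 to 24793, so counting error is small beside the spread between libraries. BDL replicate 1 and BDL_H replicate 2 stand apart over all genes, where the median of log2(FPKM + 1) was 2.48 and 2.56, below the 2.81 to 3.06 of the remaining 10. MDR replicate 1 and all 6 libraries of the ligated model had summed FPKM of Y-linked genes of 16.1 to 20.1, and the other 5 MDR and MDR_H libraries 0 to 0.016. Abcb4 was between 129 and 181 FPKM in MDR and MDR_H libraries and between 52.8 and 178 in the others, so its level does not check the reading of the MDR label. Surgery, genotype and length of treatment change together between the models and cannot be told apart. Y-linked reads also differ between the models, in every library of MDR_H against BDL_H, and within MDR. The age of the ligated mice was not known here.

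Ribosomal protein genes held several percent of the summed FPKM and 1.65 to 2.44% of the recovered reads per library. In BDL the 86 genes held 4.09, 4.29 and 4.37% of all FPKM in replicates 1 to 3, and in BDL_H 4.47, 4.12 and 5.07%. In MDR they held 4.35, 5.201 and 4.85%, and in MDR_H 5.96, 4.24 and 4.597%. The group means were 4.25 ± 0.15, 4.55 ± 0.48, 4.802 ± 0.43 and 4.93 ± 0.91% (SD, n = 3 each). MDR_H replicate 1 was the highest library, and the ranges of all 4 groups overlapped. In bulk RNA, fewer cells of a type and less RNA per cell cannot be told apart.

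Within the family, the levels spread over more than an order of magnitude. The standard subunits had a median of their mean FPKM of 246.6, against 2.27 for all genes in the table. Of the 77, 70 were at 100 FPKM or more and 65 were among the 500 highest genes. The highest was Rpl41, the smallest large-subunit protein, at a mean of 1193 FPKM (1011 to 1648 over the libraries). Rplp1, an acidic stalk protein, followed at 736 (589 to 975), Rps2, a small-subunit protein, at 653 (554 to 851), and Rpl10, needed for the subunits to join, at 568 (498 to 786). Within libraries Rplp1 was above Rps2 in 10 of 12 and Rps2 above Rpl10 in 12 of 12, although the ranges of both pairs over the libraries overlap.

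The 7 genes that lay under 100 FPKM were Rpl15 (91.7), Rps21 (83.7), Rpl34 (58.4), Rpl22 (50.9), Rps20 (38.7), Rpl21 (27.03) and Rps15a (23.4). Gene-model length enters these values. The length implied by the FPKM steps was 5136 bases for Rps15a and 3446 for Rps20, against a median of 795 bases (346 to 5136), and 10 subunits with models over 1800 bases had a median of 134 FPKM against 270.4 in the other 67. Rps15a had a median of 4418 reads, more than the 1669 of Rps21, whose FPKM is higher. An order of FPKM within the family is thus partly an order of the gene models used for counting, and how much was not tested.

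**Figure D1:**
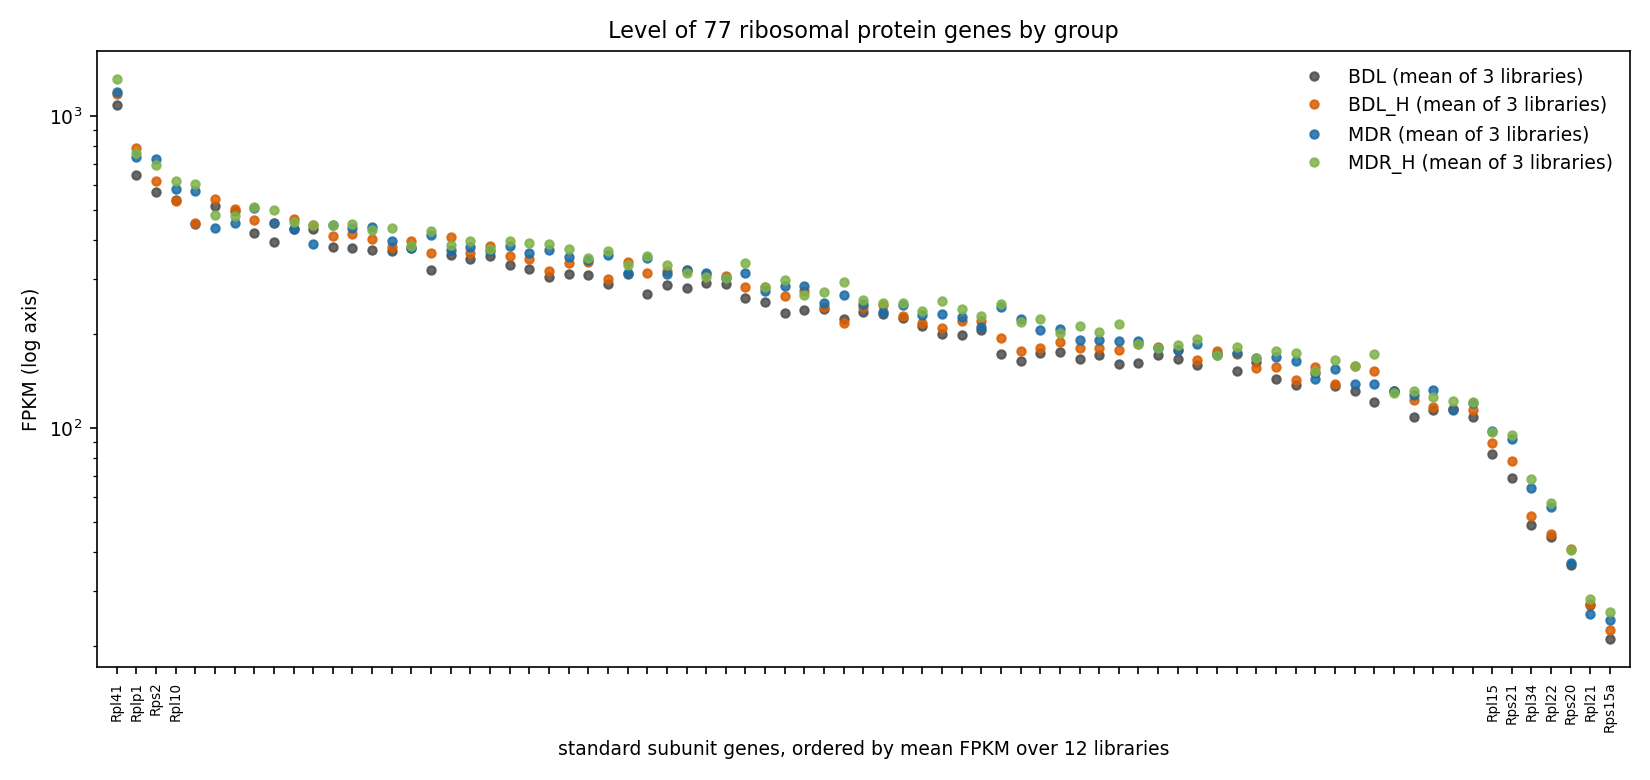
Mean FPKM (log axis) of each of the 77 standard subunit genes in the 4 groups (colours, mean of 3 libraries each), ordered by the mean over all 12 libraries; the 4 highest and the 7 lowest are named. Rpl41 is highest at 1193 FPKM and Rps15a lowest at 23.4, and the 4 groups lie close together for each gene beside the range between genes.

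The acidic stalk, which recruits elongation factors to the large subunit, and Rpsa, the laminin receptor-related small-subunit protein, are given in each library. Rplp0, the stalk base, was at 403, 460 and 443 FPKM in BDL, 449, 444 and 514 in BDL_H, 416, 436 and 453 in MDR, and 548, 413 and 411 in MDR_H. Rplp2, the partner of Rplp1, was at 238, 269 and 254 in BDL, 277, 254 and 315 in BDL_H, 255, 279 and 291 in MDR, and 347, 229.7 and 273 in MDR_H. Rpsa was at 281, 327 and 326 in BDL, 336, 307 and 377 in BDL_H, 288, 330.3 and 326 in MDR, and 390 (389.7), 289.9 and 318 in MDR_H. In all 3 genes MDR_H replicate 1 was the highest library and the 4 groups overlapped.

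The members moved up and down together from library to library, and most of their spread was of this kind. After group means were subtracted, the first principal component held 87.6% of the variance of the 77 subunits. MDR_H replicate 1 was above its group mean for 77 of 77 subunits (median deviation 0.35 on the log2 scale), and MDR_H replicates 2 and 3 were below it for all 77 (medians -0.22 and -0.12). BDL_H replicate 3 was above its group mean for 77 of 77 (median 0.16), and MDR replicate 2 for 73 (0.13) while MDR replicate 1 was for 1 (-0.12). In BDL the numbers above the mean were 30, 41 and 51, so there the libraries lay close together. MDR_H replicate 1 was the highest of the 12 libraries for 72 of 77 subunits. The median coefficient of variation of the members was accordingly 6.12% in BDL, 10.25% in BDL_H, 9.42% in MDR and 22.2% in MDR_H.

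**Figure D2:**
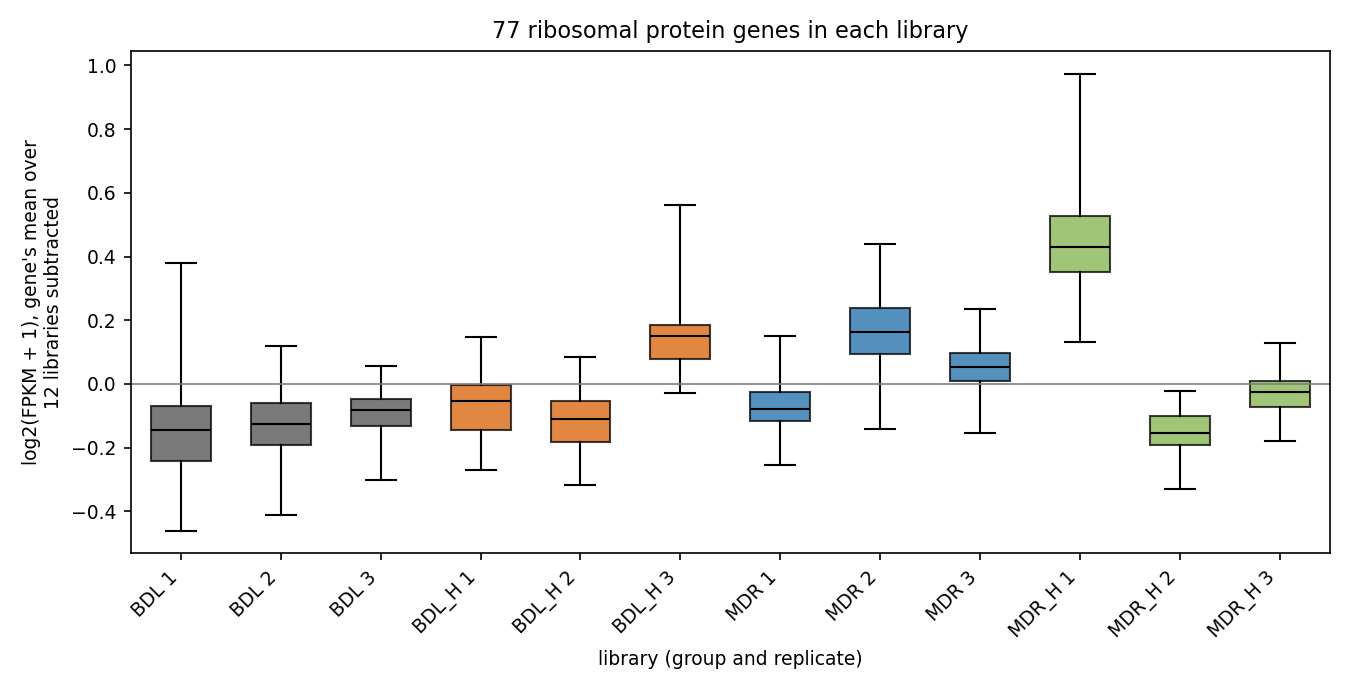
Each box holds the 77 standard subunit genes in 1 library (median, quartiles and full range) as log2(FPKM + 1) with the gene's mean over the 12 libraries subtracted; colours are groups. The box of MDR_H replicate 1 lies above all others, while MDR_H replicates 2 and 3 lie at or under 0.

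The same library was also highest for short genes outside the family. Of 564 other genes with a model of at most 1000 bases, 54.4% were highest in MDR_H replicate 1, with a median deviation from the group mean of 0.23. The share was 30.1% for models over 1000 and up to 2000 bases, 15.7% for those over 2000 and up to 4000, and 9.70% over 4000 bases, where the median deviation was -0.02. MDR_H replicate 1 was highest for 75 of 91 oxidative phosphorylation genes, 60 of 78 mitochondrial ribosomal protein genes and 24 of 34 proteasome genes as well. In BDL_H replicate 3, where the family stood 0.16 above its group, the 4 length classes stood at 0.10 (0.097 to 0.0996), with no such order. The part of model length in the family's levels was not tested.

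**Figure D3:**
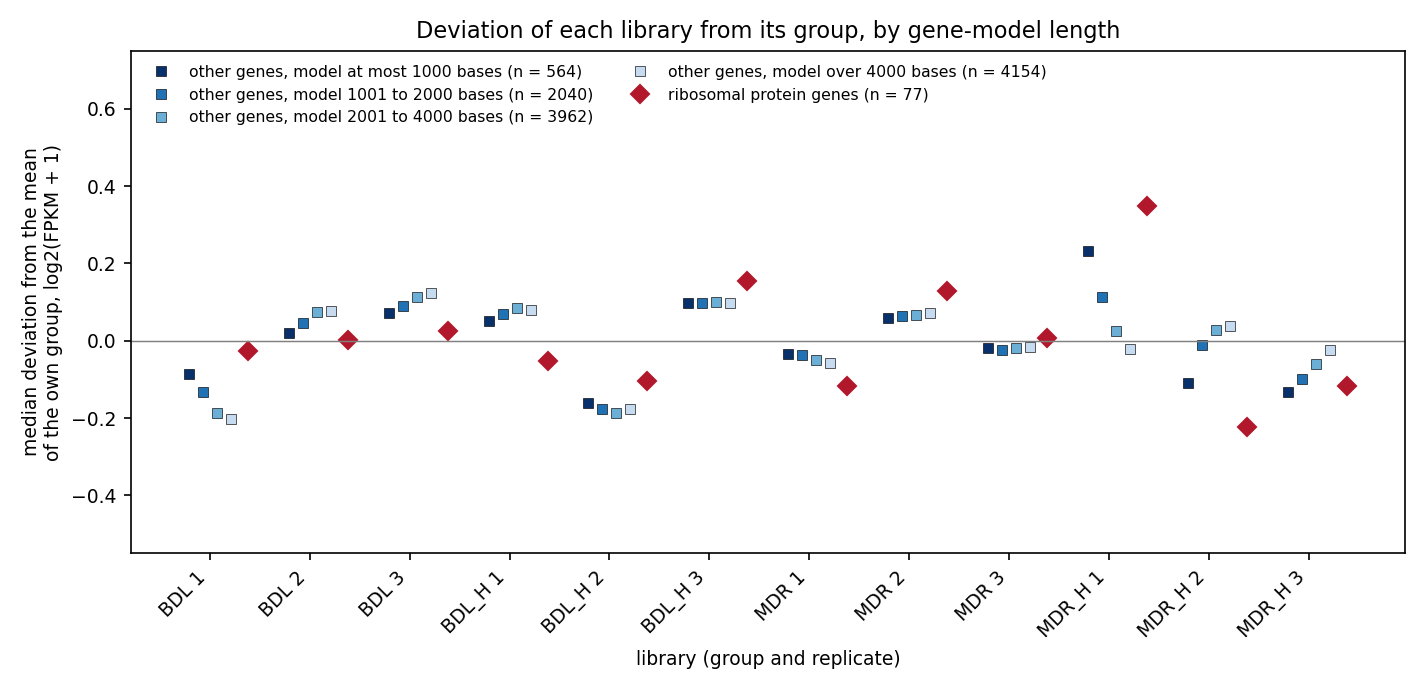
Median deviation of each library from the mean of its own group, on the log2(FPKM + 1) scale, for other genes in 4 classes of gene-model length (squares) and for the 77 subunits (diamonds). In MDR_H replicate 1 the classes run from 0.23 for the shortest models to -0.02 for the longest, and the family stands at 0.35; in BDL_H replicate 3 the classes lie together and the family stands above them.

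HDCA in ligated livers, the first comparison, asked what the bile acid changed within the BDL model. No member was called (0 of 84 higher and 0 lower; limma, Benjamini-Hochberg adjusted p under 0.05), beside 0% of all 10805 genes tested. At an unadjusted p under 0.05 the count was 0 by limma and 0 by limma-voom on recovered reads, beside 2.25% of all genes by limma. The members' median log2 difference was 0.10, with 77 of 84 above 0, and that of all genes was 0.03 with 6351 of 10805 above 0. It was above 0 under every scaling tried (0.05 to 0.10), but 0.01 without BDL_H replicate 3. Of these, scaling to the subunits' own median sets it near 0 in advance and cannot speak to its sign. Rpl8, a large-subunit protein near the peptidyl transferase centre, differed by 0.18 ± 0.13, and the lowest p on the other side was that of Rpl27 at -0.07 ± 0.11 (limma adjusted p = 0.9997 for both).

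In 11 of 84 members all BDL_H libraries lay above all BDL libraries, beside 3.43% of all genes tested, and in 0 they lay below, beside 1.59%. Rplp1, of the stalk, is the one with the smallest p: the BDL libraries were at 589, 667 and 689.8 FPKM and the BDL_H libraries at 808, 711 and 858, without overlap. Its log2 difference was 0.29 ± 0.17 (SE; 95% interval -0.08 to 0.65; limma adjusted p = 0.9997). Rps12, a small-subunit protein, was at 111, 134 and 148 in BDL and 146, 135 and 192 in BDL_H, which overlap (0.26 ± 0.19, adjusted p = 0.9997). The interval excluded an effect of more than 0.95 in either direction for each of the 77 subunits, which bounds what these 3 libraries a group can show.

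HDCA in MDR livers gave no member called either (0 of 84 higher and 0 lower by limma; 0% of all genes). At an unadjusted p under 0.05 the count was 0 by limma and 0 by limma-voom, beside 0.565% of all genes by limma. The median was 0.03 with 61 of 84 above 0, beside -0.04 for all genes, and it turned to -0.07 with array weights. When values were scaled to the subunits' own median it was -0.03, but that scaling sets it near 0 in advance. No label pairs the libraries, and the limma fit used no pairs. Paired by replicate number, on the values alone, the family median moved by 0.52, -0.31 and -0.08 in pairs 1, 2 and 3. Pair 1 differs in Y-linked genes, which summed to 20.1 FPKM in MDR replicate 1 and 0.016 in MDR_H replicate 1. In the unpaired fit the members' median was -0.14 without MDR_H replicate 1 and -0.02 without MDR replicate 1. Without MDR_H replicate 2 it was 0.15, so its sign rests on single libraries. All MDR_H libraries lay above all MDR libraries in 0 members, beside 1.35% of all genes, and below in 1, Rps23rg1, beside 4.6%.

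Rps26, at the mRNA exit of the small subunit, had the smallest p in the MDR model: 367, 405 and 395 FPKM in MDR and 527, 394 (393.5) and 421 in MDR_H, a log2 difference of 0.19 ± 0.14 (limma adjusted p = 0.9999). The groups overlap, and MDR_H replicate 1 stands above the other 5 libraries. The difference between the HDCA effects of the models, tested as an interaction, called 0 of 84 members and 0% of all genes. Its unadjusted count was 0 members by limma and 0 by limma-voom, beside 1.85% of all genes. The members' median was -0.06 and that of all genes -0.07, and the members' median turned to 0.03 under median-of-ratios scaling, to 0.02 without BDL_H replicate 3 and to 0.05 without MDR_H replicate 2. Rpl3, at the peptidyl transferase centre, had the smallest p (-0.30 ± 0.22, adjusted p = 0.9999).

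The untreated models, MDR against BDL, differ in many genes of the table: 16.2% were called, 15.1% higher and 1.07% lower (1630 and 116 genes). After median-of-ratios scaling the split was 640 higher and 486 lower, and after quantile normalization 548 and 393. Of the 84 members, 0 were called in either direction, and 2, Rps3 and Rps2, had an unadjusted p under 0.05 by limma, as 2 did by limma-voom, beside 34.3% of all genes by limma. The members' median was 0.19 with 75 of 84 above 0, under the median of all genes, 0.25. Median-of-ratios scaling took the median of all genes to -0.05 and that of the members to -0.18, and quantile normalization took them to -0.02 and 0.05. Relative to the median of all genes the members thus stood at -0.06 as measured, -0.13 after median-of-ratios scaling and 0.07 after quantile normalization, so neither sign holds under every scaling.

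In 33 of 84 members all MDR libraries lay above all BDL libraries, beside 39.2% of all genes, and in 2, Rpl28 and Rps26, below, beside 3.12%. Rps3, an entry-channel protein of the small subunit that also acts in DNA repair, was at 153, 180 (180.1) and 185 FPKM in BDL and 213, 270.5 and 247 in MDR. Its groups do not overlap, and its log2 difference was 0.49 ± 0.17 (SE; 1.40-fold; limma adjusted p = 0.0635). Rps2, its neighbour at the channel, was at 554, 592 and 562 in BDL and 720 (719.7), 696 and 762 in MDR, again without overlap (0.35 ± 0.14, 1.27-fold, adjusted p = 0.111). Both passed the threshold in a fit without MDR_H replicate 1 (limma adjusted p = 0.0348 for Rps3 and 0.0481 for Rps2). That library is in neither group but adds to the shared spread. In that fit 2 of 84 members were called, beside 14.9% of all genes. After median-of-ratios scaling Rps3 stood at 0.12 and Rps2 at -0.02.

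Rpl28, a large-subunit protein, went the other way: 498, 534 and 509 FPKM in BDL and 429, 445 and 441 in MDR, without overlap. Its log2 difference was -0.23 ± 0.12 (limma adjusted p = 0.21), and it passed the threshold after median-of-ratios scaling (-0.60, adjusted p = 0.0274) and with array weights (-0.26, adjusted p = 0.0173). Rps26 was at 415, 460 (459.7) and 432 in BDL and lower in MDR, without overlap, at -0.16 ± 0.14 (adjusted p = 0.404). Array weights, which give BDL replicate 1 and BDL_H replicate 2 little weight, called 15 members higher and 1 lower, among 45.8% of all genes called. Rps2, Rps3, Rpl13a, Rpl34 and Rps27rt were among the higher ones, and Rpl28 was the lower one. That fit stopped before reaching its tolerance, and leaving out both libraries in place of weighting them called 0 members.

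The treated models, MDR_H against BDL_H, share no library with the last comparison. They gave 0 of 84 members called, beside 8.29% of all genes, 7.36% higher and 0.935% lower (795 and 101 genes; 333 and 372 after median-of-ratios scaling, 380 and 339 after quantile normalization); 0 members by limma and 0 by limma-voom had an unadjusted p under 0.05, beside 28.3% of all genes by limma. The members' median was 0.10 with 61 of 84 above 0, beside 0.20 for all genes. It was -0.17 after median-of-ratios scaling and -0.02 after quantile normalization, and -0.08 without MDR_H replicate 1. In 0 members did all libraries of one group lie above or below the other, beside 32.4% of all genes above and 4.55% below.

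Rpl13a, known for its release from the ribosome in inflammation, had the smallest p there: 430.4, 427 and 502 FPKM in BDL_H and 794, 465 and 555 in MDR_H, a log2 difference of 0.38 ± 0.18 (limma adjusted p = 0.196). Only MDR_H replicate 2 lay within the BDL_H range. Rps3 differed by 0.34 ± 0.17 (adjusted p = 0.197) and Rpl28 by -0.18 ± 0.12 (adjusted p = 0.371), each with the sign it had between the untreated models, in other libraries. Neither passed the test, and the groups overlap for both. Rpl34 differed by 0.35 ± 0.19 (adjusted p = 0.24) and, in the other direction, Rpl12 of the stalk base by -0.10 ± 0.15 (adjusted p = 0.683). Each comparison of models shares a group with each HDCA comparison, so none of these values are independent of those above.

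**Figure D4:**
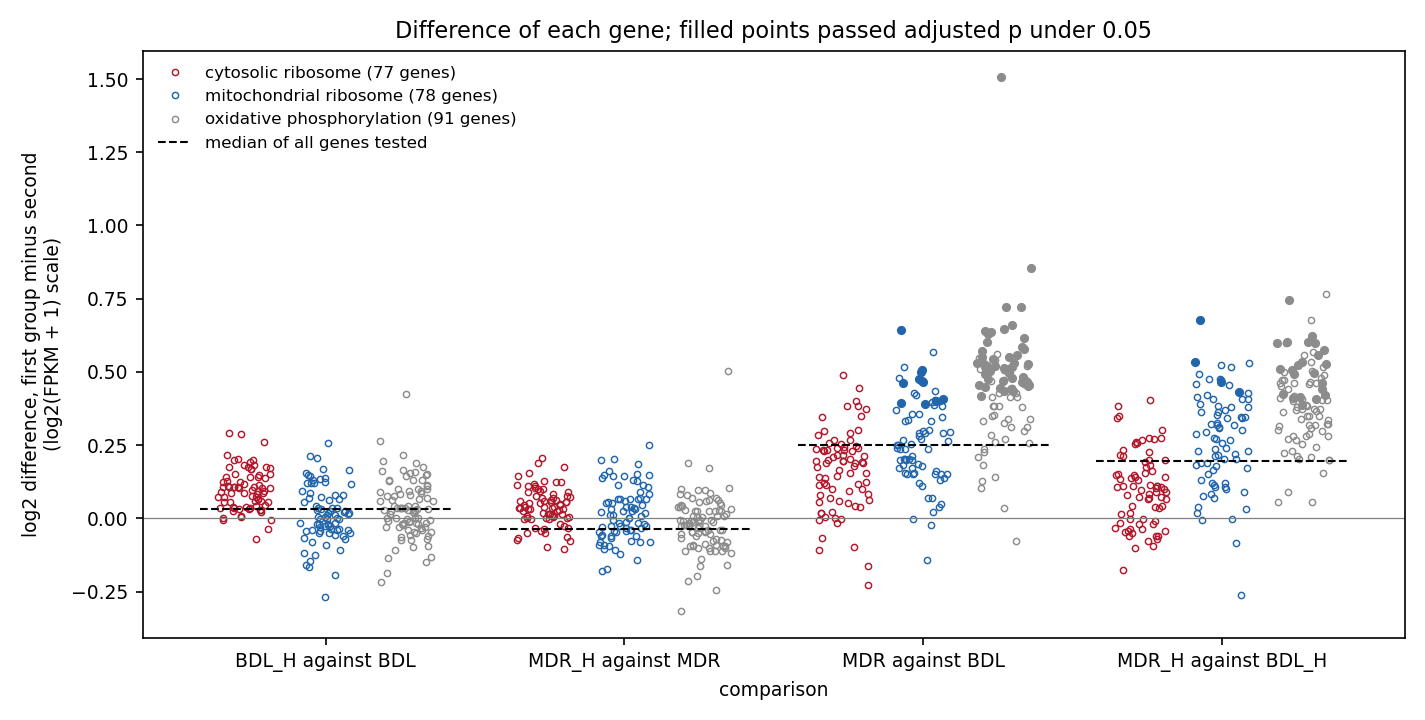
Log2 difference of each gene in the 4 comparisons of groups (first group minus second, log2(FPKM + 1) scale) for the 77 cytosolic subunits, 78 mitochondrial ribosomal proteins and 91 oxidative phosphorylation genes; dashed lines are medians over all genes tested. Filled points passed the adjusted p threshold: 0 of the cytosolic subunits in any comparison, 11 mitochondrial ribosomal proteins and 47 oxidative phosphorylation genes in MDR against BDL.

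The family's common movement was removed by subtracting each library's median over the subunits. Each gene's own mean over the libraries was then subtracted as well. A positive value thus means high for that gene beside the family, and not a level above the family median. The members kept an SD of 0.10 on the log2 scale over libraries, against 0.18 for the spread of the family median within groups. A fit on values with only the library median removed called 0 members in any of the 5 comparisons. The genes with the widest spread were picked after their values were seen and are described without a test. Rps27a, which makes a ubiquitin fusion, stood at 0.59 in MDR_H replicate 1 and at 0.40 in BDL_H replicate 3, and between -0.26 and 0.01 in the other 10. Its FPKM was 277 and 208 in those 2 libraries, under the subunits' medians of 320 and 273 there. In the rest it was 109 to 144.

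On the same scale Rps18, at the head of the small subunit, stood at 0.45 in BDL replicate 1 and at 0.23 in BDL_H replicate 2. These are the 2 libraries that stand apart over all genes, and in the others Rps18 was between -0.15 and 0.05. Its FPKM of 623 in BDL replicate 1 was its highest. Rps27 was at 278 FPKM in that library and at 184 and 211 in the other BDL libraries. Relative to the family median, Rps3 was below its own mean in all 6 BDL and BDL_H libraries (-0.39 to -0.04). It was above its own mean in all 6 MDR and MDR_H libraries (0.08 to 0.20). Rpl28 was above its own mean in the first 6 (0.09 to 0.23) and below it in the other 6 (-0.30 to -0.05). Both patterns follow the model, with or without HDCA, and neither passed the test in the fit relative to the family.

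**Figure D5:**
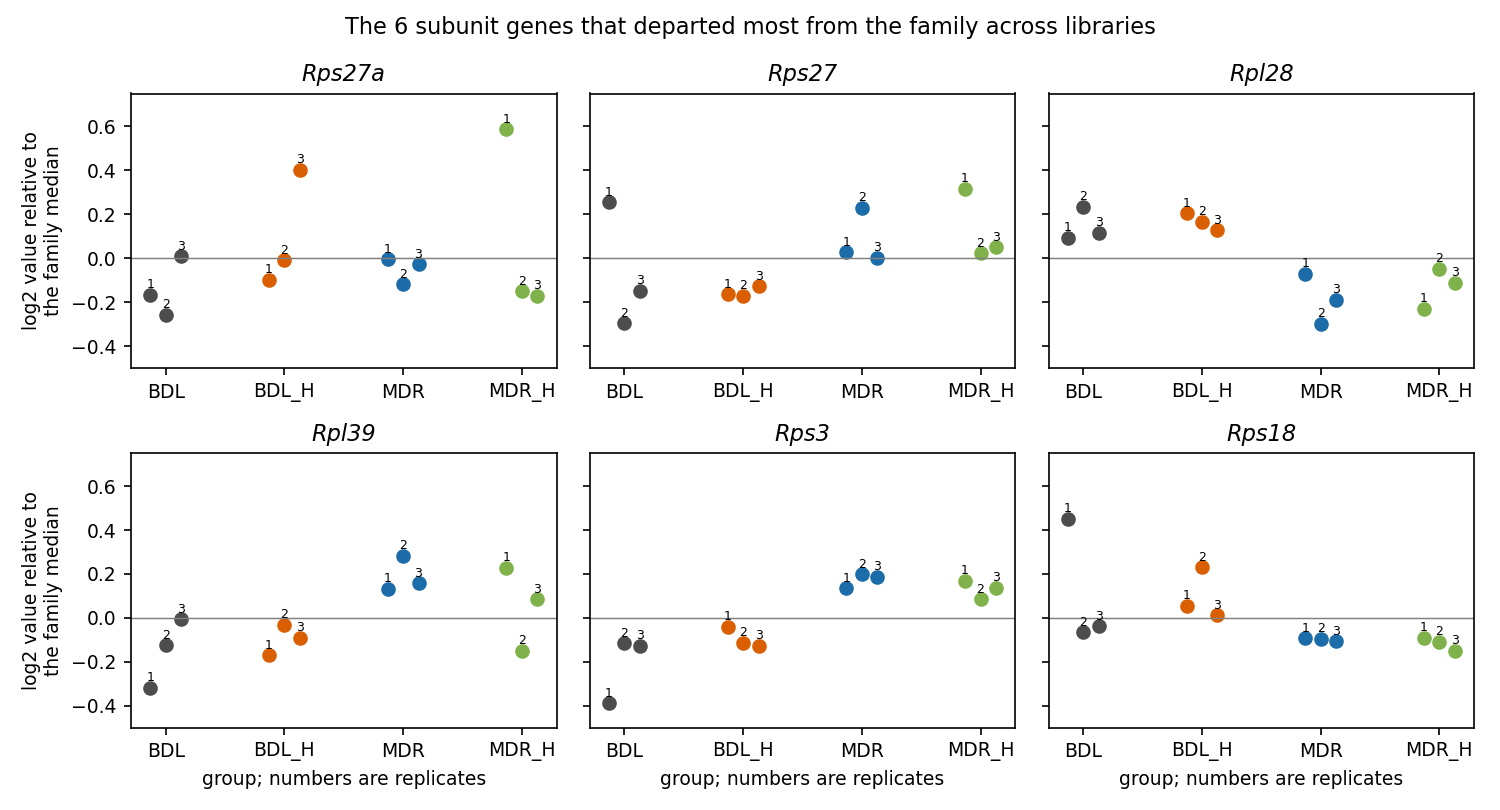
Log2 value of the 6 subunit genes with the widest spread relative to the family median, by library, with the gene's mean over libraries subtracted; small numbers are replicates. Rps27a is high in MDR_H replicate 1 and BDL_H replicate 3, Rps18 in BDL replicate 1, and Rps3 and Rpl28 separate the 6 libraries of each model in opposite directions.

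Subunits with and without the pyrimidine run had close medians. In MDR against BDL, 27 subunits with a pyrimidine run within 5 bases of the start had a median of 0.22 and 30 without one had 0.15. In BDL_H against BDL the medians were 0.07 and 0.10, and in MDR_H against MDR 0.04 and 0.06. The ranges overlapped in each case, and the groups were not compared by a test. By subunit, the medians of the 50 tested large and 34 small members were 0.15 and 0.21 in MDR against BDL and 0.08 and 0.12 in BDL_H against BDL.

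The members that are no standard subunit were mostly low. Rpl36al, a retrogene of Rpl36a that is used widely, was at 128 to 226 FPKM, a level like that of the subunits. Rpl6l lay between 23.9 and 33.3 FPKM, Rpl37rt between 14.2 and 29.8 and Rps27rt between 14.1 and 33.1; reads of such copies and of their parents can be shared, so these 3 values are uncertain. Rps27rt was at 19.5, 15.4 and 14.1 in BDL and 21.6, 24.5 and 21.4 in MDR, without overlap (0.45 ± 0.21, limma adjusted p = 0.151), and Rps27 differed by 0.26 ± 0.23 (adjusted p = 0.428). Rps19bp1, a nucleolar partner of Rps19, was at 8.21 to 13.5 FPKM. Rps23rg1 was at 0.232 to 2.30, Rpl32l at 0.302 to 1.28, and the muscle paralog Rpl3l and the paralog Rpl39l at 0 to 0.0795 and 0 to 0.125.

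Ribosomal proteins that the symbol rule does not reach gave like values. Fau, a ubiquitin-like fusion of a small-subunit protein, was at 309, 239.4 and 239.1 FPKM in BDL, 233, 273 and 277 in BDL_H, 261, 308 and 286 in MDR, and 370.4, 233 and 262 in MDR_H. Rack1, a scaffold on the small subunit, was at 223, 283 and 284 in BDL, 295 (294.6), 280.4 and 332 in BDL_H, 294 (293.9), 337 and 313 in MDR, and 389.8, 272 and 294.5 in MDR_H. Both were highest in MDR_H replicate 1, and neither was called in any comparison. Among 21 elongation factors and other TOP messengers, 0 were called in MDR against BDL and 1 in MDR_H against BDL_H, Eif4a2, a helicase of translation initiation (0.70 ± 0.20, limma adjusted p = 0.0499), which kept its call in 3 of 24 alternatives. Eef1a1, the abundant elongation factor, was between 3079 and 4016 FPKM in all libraries, and Eef2 between 608 and 720.3. Npm1, a nucleolar chaperone, was between 46.3 and 95.3 FPKM.

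Few factors that build the ribosome passed the test, and how many did depended on scaling. Of 50 biogenesis factors, 0 were called higher and 1 lower in MDR against BDL, beside 15.1% and 1.07% of all genes. That was Gnl3, a nucleolar GTPase, at 11.8, 15.2 and 11.8 FPKM in BDL and 8.78, 9.502 and 9.90 in MDR (-0.41 ± 0.13, limma adjusted p = 0.0494), a call kept in 6 of 24 alternatives. Median-of-ratios scaling called 11 of the 50 lower (486 of all 10805 genes) and quantile normalization 7 (393 of 10805), with medians of -0.32 and -0.28 against -0.00 as measured. In MDR_H against BDL_H, Nolc1, a nucleolar chaperone, was at 9.13, 9.71 and 9.53 in BDL_H and 5.98, 5.63 and 5.98 in MDR_H (-0.61 ± 0.11, adjusted p = 0.013), kept in 22 of 24 alternatives. Rrp12, an export factor of both subunits, fell by 0.61 ± 0.16 (adjusted p = 0.0431) at levels of 0.58 to 2.52 FPKM, a call kept in 9 of 23 alternatives. None of 18 RNA polymerase I genes passed the test by limma in these comparisons (0 called; 3 and 2 at an unadjusted p under 0.05).

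Of 28 regulators of TOP messengers and mTOR, Deptor, an mTOR inhibitor, rose by 0.61 ± 0.18 in MDR against BDL (limma adjusted p = 0.0424) and Sesn3, a stress-induced mTORC1 inhibitor, by 1.04 ± 0.32 (adjusted p = 0.0482). These were the 2 called higher, with 0 lower, beside 15.1% and 1.07% of all genes. Deptor was at 14.1, 13.8 and 14.3 FPKM in BDL and 24.9, 19.4 and 22.2 in MDR, and Sesn3 at 1.797, 5.89 and 5.50 and at 9.55, 10.3 and 8.17. These calls held in 9 and 7 of 24 alternatives; after median-of-ratios scaling 0 of the 28 were called higher and 3 lower, beside 640 and 486 of all 10805 genes. Without BDL replicate 1, a library that stands apart, Sesn3 differed by 0.62 and was not called (adjusted p = 0.109). Larp1 was at 19.9 to 25.1 FPKM in all 12 libraries and was not called in any comparison. Mtor was at 7.79, 6.22 and 7.11 in BDL_H and 4.72, 5.42 and 5.60 in MDR_H, without overlap (-0.36 ± 0.14, adjusted p = 0.123), and Myc at 2.47 to 11.4 FPKM overlapped in each comparison. In MDR_H against BDL_H, Mxi1, a Myc antagonist, was called higher (0.44 ± 0.11, adjusted p = 0.0387; 10 of 24 alternatives).

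Other large complexes were read beside the cytosolic ribosome. Of 91 oxidative phosphorylation genes, 47 were called higher and 0 lower in MDR against BDL (median 0.47), and 23 and 0 in MDR_H against BDL_H (0.41), beside 15.1% and 7.36% of all genes. With median-of-ratios scaling these counts were 1 and 0, and without MDR_H replicate 1 they were 66 and 0. Uqcrc2, a core subunit of complex III, was at 89.2, 85.5 and 92.3 FPKM in BDL and 129.7, 129.9 and 127 in MDR (0.53 ± 0.10, limma adjusted p = 0.00716). Of 78 mitochondrial ribosomal proteins, 11 and 4 were called higher and 0 lower, with medians of 0.26 and 0.29, and 0 and 0 after median-of-ratios scaling, where the first median was -0.08. Without MDR_H replicate 1 the counts were 15 and 0. Of 34 proteasome genes 0 were called by limma, with medians of 0.11 and 0.12. No test compared these lists with the ribosomal one.

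Markers of other liver cells differed between the same groups. Of 10 stellate cell and fibroblast markers, 8 were called higher and 0 lower in MDR against BDL, beside 15.1% and 1.07% of all genes, and their summed FPKM was 68.3 to 133 in BDL, 135 to 233 in BDL_H, 236 to 471 in MDR and 297 to 407 in MDR_H. Endothelial markers had 6 of 10 called higher and cholangiocyte markers 5 of 9. In BDL_H against BDL, 10 of 10 endothelial markers lay above 0 (0 called by limma, 8 at an unadjusted p under 0.05), with sums of 33.0, 94.0 and 136 in BDL and 142 to 155 in BDL_H. Stellate markers (10 of 10 above 0, 4 at an unadjusted p under 0.05) and erythroid markers (5 of 5 above 0, 0 at that p) lay the same way, beside 2.25% of all genes at that p. BDL replicate 1, which stands apart, was the lowest library for 9 of 10 endothelial, 9 of 10 stellate and 5 of 5 erythroid markers. Hepatocyte markers were at sums of 38415 to 68147 in all libraries, with 1 of 9 called lower in MDR against BDL. Of 10 neutrophil markers 4 were tested, with sums of 14.9 to 94.1 FPKM, and all 4 lay below 0 in both comparisons of models. Prtn3, a granule protease, fell by 3.36 in MDR against BDL (limma adjusted p = 2.7e-06) and by 2.41 in MDR_H against BDL_H (adjusted p = 5.6e-05), where Retnlg also fell, by 1.76 (adjusted p = 0.0132). Ly6g, the defining neutrophil marker, was listed at 0 in 11 libraries. MDR_H replicate 1, where the family is highest, was the highest library for 1 macrophage and 1 T and NK marker and for 0 of the other marker lists. The part of these cells in the family's levels was not tested.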

How the data were processed

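RNA of 12 mouse liver libraries was read from 1 table of FPKM values that the authors deposited. Among tools, the submitters' processing notes list HISAT2 2.0.5, featureCounts 1.5.0-p3, CASAVA 1.8, DESeq2 1.20.0 and fastp, with the mouse build GRCm38; the sources used here give neither annotation release nor strand. The FPKM steps were whole multiples of 1 read, to 0.02 of a read, for 16968 of 16970 genes (99.99%), and depth, reads and gene-model lengths were taken from them.

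Values were transformed as log2(FPKM + 1), which understates changes of low genes. The 10805 genes with FPKM of at least 1 in at least 3 libraries were fitted with limma 3.58.1 (R 4.3.3, trend) to 4 group means over all 12 libraries (8 residual degrees of freedom). Tests were two-sided, with Benjamini-Hochberg adjustment over all genes tested and calls at an adjusted p under 0.05. The test was checked on simulated data. Alternatives were other pseudocounts, filters, scalings, array weights, limma-voom on recovered reads, the replicate block and leaving out libraries; scaling to the subunits' median was added after seeing the data.

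The members, gene lists and tests were chosen with earlier results of these data known. Named are the stalk genes and Rpsa, the 4 highest and lowest members tested, the 3 of smallest p per direction and comparison (those not called are given in part), all non-standard members, the leading genes of the lists and fixed key genes; others were chosen after their values were seen. Rps23rg1 was also left out where only standard subunits are counted. Gas5 and other snoRNA host genes were not analysed here, and some genes are not reported here. Start sequences are from RefSeq (GRCm38.p6). Library deviations from group means correlated at 0.438, 0.312 and 0.548 for the same numbers in MDR and MDR_H, so those numbers were taken as pairs, on the values alone. Between BDL and BDL_H they correlated at -0.43, -0.382 and 0.431 and were not. Different numbers correlated at -0.462 to 0.0103 in MDR and MDR_H, but at -0.56 to 0.548 in BDL and BDL_H. A correlation of this size therefore does not by itself mark a pair.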

Additional observations from a re-analysis of the deposited data

How the results depend on the processing

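The counts of members called and the family medians were recomputed under the alternatives. The counts stayed at 0 in either direction, except in MDR against BDL. There array weights gave 15 higher and 1 lower, beside 45.8% of all genes called. Median-of-ratios scaling gave 0 higher and 1 lower, beside 10.4% of all genes. Leaving out 1 library in turn gave 0 to 2 higher, with 2 without MDR_H replicate 1, where 14.9% of all genes were called. The family median moved to -0.178 in MDR against BDL and -0.169 in MDR_H against BDL_H with median-of-ratios scaling. Leaving out each library in turn, the median ranged from 0.0104 to 0.148 in BDL_H against BDL and from -0.142 to 0.149 in MDR_H against MDR. It ranged from 0.113 to 0.234 in MDR against BDL, from -0.0755 to 0.202 in MDR_H against BDL_H and from -0.234 to 0.0473 for the difference of HDCA effects. The causes were not tested.

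The members' share of all FPKM without the 10 highest genes was 5.35, 5.74, 5.79 and 5.96% in BDL, BDL_H, MDR and MDR_H, and as a share of recovered reads it was 1.68, 1.81, 1.88 and 1.96%, by construction of the denominators. The replicate block ties libraries of the same number across all 4 groups, also between BDL and BDL_H, whose numbers were not taken as pairs. With it 0 members were called in each comparison, and 1254 genes higher and 97 lower in MDR against BDL over all genes. The block changed no call of a member. With only the groups compared in the fit, 650 and 79 genes were called there, against 1630 and 116, and 0 members. Array weights called 4201 and 746, a mean FPKM of at least 5 called 540 and 76, scaling to the subunits' median 440 and 77, and leaving out 1 library 452 (without MDR replicate 2) to 2168 (without BDL_H replicate 2) higher. In MDR_H against BDL_H, 795 genes were called higher and 101 lower, and 464 and 78, 2188 and 562, 367 and 69, and 127 and 43 under the same settings. There the replicate block gave 523 and 66, and leaving out 1 library 144 (without MDR_H replicate 2) to 1375 (without BDL replicate 1) higher. With 3 libraries a group, 95% intervals of single members reached 0.35 to either side of the estimate (median, log2 scale), so smaller differences were mostly not detectable. These intervals are not adjusted for the number of genes, and a call needed more. Rps3, at 0.49 in MDR against BDL, was not called (limma adjusted p = 0.0635).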

Other observations

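Paralogs that the symbol rule leaves out were higher in MDR than in BDL in the libraries shown, without a call by limma (0 of 3; 1 at an unadjusted p under 0.05). Over all genes tested, 39.2% had every MDR library above every BDL library and 34.3% had such a p. Rps27l, a paralog of Rps27 that p53 induces, was at 38.4, 38.2 and 44.1 FPKM in BDL, 37.7, 36.7 and 39.0 in BDL_H, 48.9, 51.7 and 48.9 in MDR, and 71.1, 37.1 and 43.7 in MDR_H. The MDR libraries lay above all BDL libraries, at a log2 difference of 0.30 ± 0.19 (SE; limma adjusted p = 0.267). Rpl22l1, a paralog of Rpl22, was at 29.4, 30.1 and 32.4 in BDL and 38.7, 48.6 and 35.5 in MDR (0.40 ± 0.22, adjusted p = 0.216). Rpl7l1, a nucleolar paralog of Rpl7, was at 18.4, 26.6 and 25.3 in BDL and 28.3, 30.01 and 30.2 in MDR (0.34 ± 0.14, adjusted p = 0.115). In all 3 genes MDR_H replicate 1 was the highest library.

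The 8 -ps rows, which the annotation lists as pseudogenes, were at 0 to 16.0 FPKM in single libraries and summed to 5.06 to 17.4 per library. Reads of a subunit gene that map to such a copy would be counted there, and how many do was not tested.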
